A study of Mus musculus with 64 samples.

Results

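A set of 9 genes that carry the dopamine signal to cyclic AMP in striatal spiny projection neurons was followed by RNA sequencing in striatum and cerebral cortex of 32 C57BL/6 mice aged 6 months. The genes were taken by symbol from a table of 48795 genes: the G protein subunits Gnal and Gng7, the adenylate cyclase Adcy5, the protein kinase A (PKA) subunits Prkar2b and Prkacb, and the phosphoproteins Ppp1r1b (DARPP-32), Ppp1r1a, Arpp21 and Arpp19. All 9 were found and all 9 passed the low-count filter in both tissues. The 4 genotypes were Q140 (Het (Q140) KI), which carries an expanded CAG repeat knocked into 1 copy of Htt, the mouse huntingtin gene, as a model of Huntington's disease, wild type (WT), Q140 Polq+/- (Het (Q140) KI X Polq+/-), and Polq+/-, labelled as lacking 1 copy of the DNA polymerase theta gene. Each genotype had 8 mice, 4 females and 4 males, and each mouse gave 1 striatal and 1 cortical library, so that 64 libraries were available. The knock-in acts in every cell of the body, and the tissues were dissected whole, so each value is a mean over all cell types of the piece. Replicates were separate mice, and all were of 1 age.

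As background, dopamine binds D1 receptors, which act through Golf, a stimulatory G protein whose alpha subunit is Gnal and whose gamma subunit is Gng7, to stimulate adenylate cyclase type V (Adcy5), the main cyclase of the striatum. D2 receptors inhibit that cyclase, and adenosine receptors of the Adora2a type stimulate it through the same Golf. Cyclic AMP releases the catalytic subunits of PKA (Prkacb is a major one) from regulatory subunits such as Prkar2b. PKA then phosphorylates DARPP-32, which in that form inhibits protein phosphatase 1 and so prolongs PKA's effect. Spiny neurons are the striatal cells most affected in Huntington's disease.

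Promoter windows are shown for members that stand for the patterns described below: Arpp21, Arpp19 and Adcy5, whose mRNA was far lower in Q140 striatum, Gng7, whose mRNA was slightly lower, and Prkacb, whose mRNA was higher. RefSeq's table for GRCm38.p6 held a window of 250 bases before to 50 bases after a transcription start for 6 of the 9 members, and where a gene had several starts the most upstream was used. Capitals mark the GC box, GGGCGG on either strand, and all other bases are in lower case. The windows lie at chr9:112233673-112233972 (minus strand, Arpp21), chr9:75037364-75037663 (plus, Arpp19), chr16:35154614-35154913 (plus, Adcy5), chr10:81014876-81015175 (minus, Gng7) and chr3:146812897-146813196 (minus, Prkacb).
Arpp21: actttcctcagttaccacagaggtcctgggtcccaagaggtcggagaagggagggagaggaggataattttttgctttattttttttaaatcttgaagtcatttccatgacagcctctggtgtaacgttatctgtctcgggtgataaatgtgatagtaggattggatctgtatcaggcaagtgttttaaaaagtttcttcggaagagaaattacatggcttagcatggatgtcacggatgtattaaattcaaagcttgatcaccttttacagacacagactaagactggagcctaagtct
Arpp19: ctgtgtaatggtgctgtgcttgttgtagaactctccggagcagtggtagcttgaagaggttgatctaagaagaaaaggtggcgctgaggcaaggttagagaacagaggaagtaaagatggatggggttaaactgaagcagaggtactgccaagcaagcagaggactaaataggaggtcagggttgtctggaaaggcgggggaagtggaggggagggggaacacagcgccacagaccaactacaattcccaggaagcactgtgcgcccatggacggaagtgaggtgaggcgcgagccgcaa
Adcy5: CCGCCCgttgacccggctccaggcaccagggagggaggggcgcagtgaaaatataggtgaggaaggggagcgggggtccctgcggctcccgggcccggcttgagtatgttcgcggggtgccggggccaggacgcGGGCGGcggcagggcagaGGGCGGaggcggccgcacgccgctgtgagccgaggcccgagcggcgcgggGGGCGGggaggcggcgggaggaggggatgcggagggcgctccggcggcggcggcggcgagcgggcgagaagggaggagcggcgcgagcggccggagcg
Gng7: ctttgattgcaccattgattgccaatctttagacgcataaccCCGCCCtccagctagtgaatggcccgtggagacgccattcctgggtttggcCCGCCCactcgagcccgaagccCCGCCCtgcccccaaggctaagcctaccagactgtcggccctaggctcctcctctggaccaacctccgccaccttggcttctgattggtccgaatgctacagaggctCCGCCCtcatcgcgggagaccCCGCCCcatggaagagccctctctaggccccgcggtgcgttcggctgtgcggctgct
Prkacb: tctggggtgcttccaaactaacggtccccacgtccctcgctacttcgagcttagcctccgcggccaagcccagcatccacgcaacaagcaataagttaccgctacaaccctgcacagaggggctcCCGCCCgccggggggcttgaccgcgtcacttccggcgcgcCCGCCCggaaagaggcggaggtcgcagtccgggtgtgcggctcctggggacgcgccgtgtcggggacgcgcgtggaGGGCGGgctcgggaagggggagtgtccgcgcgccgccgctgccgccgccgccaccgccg
The windows of Arpp21 and Arpp19 held no GC box and had 40.7% and 53.7% G and C, against a median of 52.7% over all 32851 windows of the table. Of the 2 windows of Arpp19 in the table the other did hold a GC box, and of the 9 of Arpp21 0 did. The window of Adcy5 held 4 GC boxes and had 79.0% G and C, that of Gng7 held 5 and had 63.7%, and that of Prkacb held 3 and had 72.0%. A GC box was found in 35.66% of all windows. The half-site of the cyclic AMP response element, TGACG on either strand, was found in 20.81% of all windows and, of the 6 members' windows, in that of Prkacb, 102 bases before the start. Among the further windows that start elsewhere in the same genes, it was in 3 of the 9 windows of Arpp21 and 1 of the 2 of Gng7. These matches describe the letters of the windows, and no binding was measured.

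Library totals were 28.7 to 40.6 M gene counts in striatum and 30.9 to 40.1 M in cortex. The members were deeply counted, with at least 4759 counts in every striatal library for 8 of the 9 and at least 1849 for Ppp1r1a. The dissections bore the marks of their tissue: the spiny neuron markers Drd2 and Adora2a averaged 161 and 178 FPKM in wild-type striatum and 0.353 and 0.789 FPKM in wild-type cortex, and the cortical marker Slc17a7 averaged 1.04 FPKM in wild-type striatum and 239.6 FPKM in wild-type cortex. A few striatal libraries stood apart, 3 in all. The 4 cerebellar granule cell markers summed to 136.8 CPM (counts per 1 M counts of the library, after scaling by edgeR's trimmed mean of M-values, TMM) in wild-type male 2 and to at most 1.62 CPM in every striatal library of the other 3 genotypes, the 6 choroid plexus markers summed to 1383 CPM in Polq+/- female 3, and Htt was at 137.2 CPM in wild-type male 3, against 208.7 CPM or more in the other wild types. Polq checked the labels in part. In striatum it was at 1.31 to 2.42 CPM in 12 of the 16 mice labelled Polq+/-, at 0.187 to 0.376 CPM in the other 4 (Polq+/- male 3 and Q140 Polq+/- females 3 and 4 and male 3), and at 2.24 to 4.08 CPM in the 16 mice with both copies. Where leaving these libraries out changed a call, the results with and without them are given.

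The first question was how the Q140 allele changed the genes in striatum. Between Q140 and wild type 7 of the 9 members fell, 1 rose (Prkacb) and 1 (Prkar2b) missed the threshold of adjusted p 0.05 (edgeR's quasi-likelihood test, Benjamini-Hochberg over 18270 genes). Over all genes 32.1% were called (15.2% lower and 16.9% higher). Of the genes called 52.7% were higher, and on the deposited FPKM 74.8% were, with the median of all genes at 0.04 on the log2 scale. The median log2 fold change of the members was -0.65, and that of all genes 0.00. The members fell into 2 sizes of change. Ppp1r1b, Ppp1r1a, Arpp21, Arpp19 and Adcy5 fell by 36.3% to 43.4%, and the Golf subunits Gnal and Gng7 fell by 10.9% and 11.9%. The 2 groups of mice did not overlap for 6 members, against 8.25% of all genes. In bulk tissue fewer spiny neurons and less RNA per neuron cannot be told apart, and the summed spiny neuron markers moved with these genes: the 12 markers summed to 6244 to 7254 CPM in Q140 striatum and 9522 to 11453 CPM in wild-type striatum, with 11 of 12 lower. Markers of microglia (5 of 6 lower; 326 to 363 CPM in Q140 and 366 to 396 CPM in wild-type striatum) and of endothelial cells (5 of 5 lower; 112.9 to 131.5 CPM in Q140 and 137.5 to 151.2 CPM in wild-type striatum) moved too, and no marker of any list was at 0 throughout. The oligodendrocyte sum (median 5731 CPM in Q140 and 6459 CPM in wild-type striatum) and the astrocyte sum (1200 and 1302 CPM) were lower, with overlapping ranges. The sum of cortical excitatory markers was higher (37.2 and 33.1 CPM), also with overlap. The part of these markers in the result was not tested.

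**Figure D1:**
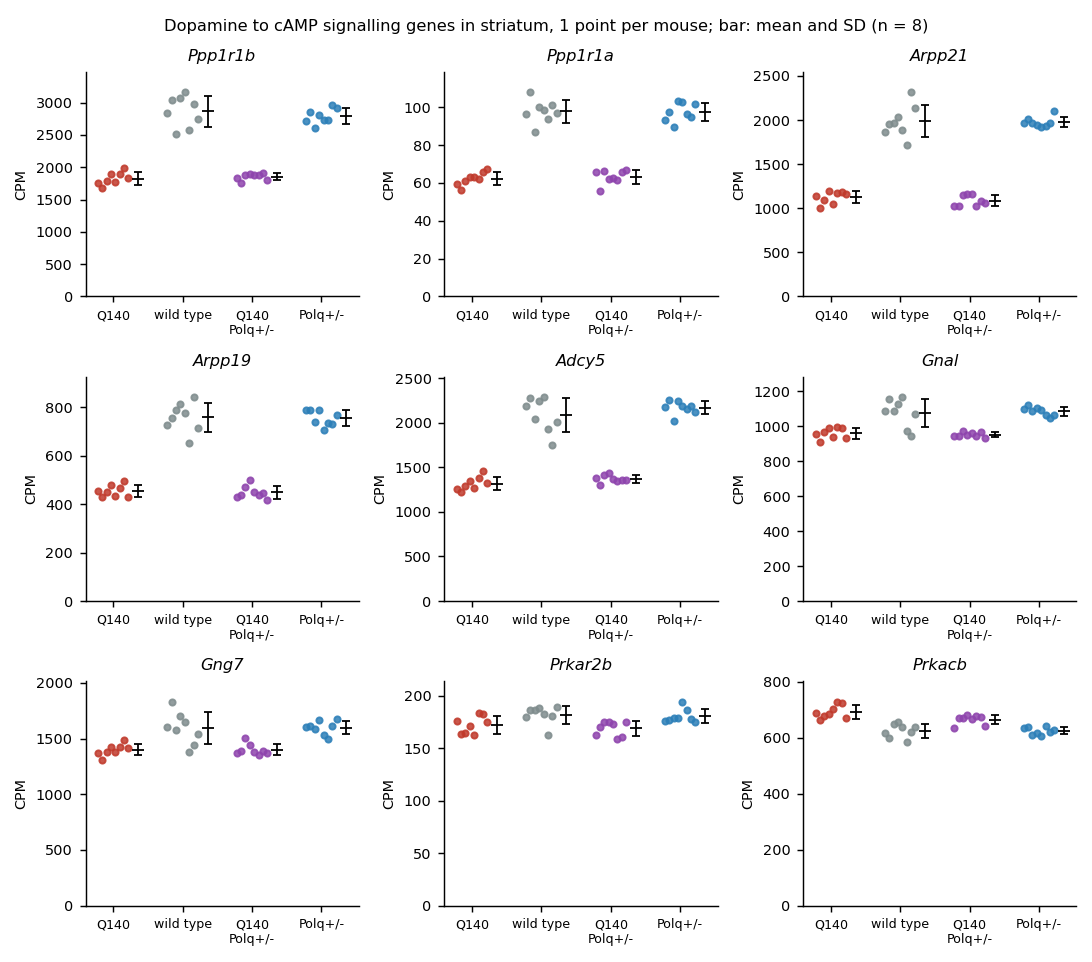
TMM-scaled CPM of the 9 genes in striatum, 1 point per mouse, in Q140, wild type, Q140 Polq+/- and Polq+/- mice, with the mean and SD of each group of 8 beside its points. For Ppp1r1b the 8 Q140 mice lie between 1676 and 1981 CPM and the 8 wild types between 2508 and 3160 CPM, and for Prkacb the Q140 mice lie above the wild types.

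Of the transducers, Gnal, the alpha subunit of Golf, was at 907.2 CPM in the lowest, 959.6 CPM in the median and 992.0 CPM in the highest Q140 mouse, against 940.5, 1088 and 1166 CPM in wild types. The groups overlapped through wild-type male 3, the lowest wild type, and male 2, the next at 972.4 CPM. The log2 fold change was -0.17 (SE 0.0319, 95% interval -0.23 to -0.10, edgeR adjusted p = 8.03e-05, 8 of 8 Q140 mice under the median wild type). Gng7, the gamma subunit of Golf, without which mice keep little Gnal protein in striatum, was at 1311, 1400 and 1484 CPM in Q140 mice and at 1378, 1588 and 1831 CPM in wild types. The groups overlapped here through the same mice, with male 2 the lowest wild type and male 3 the next at 1444 CPM, both inside the Q140 range. The log2 fold change of Gng7 was -0.18 (SE 0.0376, 95% interval -0.26 to -0.11, edgeR adjusted p = 0.000198, 8 of 8). Without the 3 striatal libraries that stood apart the falls were larger, at -0.22 for Gnal and -0.23 for Gng7 on the log2 scale. The deposited FPKM are scaled between libraries by the library total only. On these FPKM the falls were smaller but called, at -0.10 and -0.12 (limma, log2 of FPKM plus 1).

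Adcy5, the cyclase that Golf stimulates, was at 1222, 1307 and 1456 CPM in Q140 mice and at 1752, 2115 and 2290 CPM in wild types. Every Q140 mouse lay below every wild type, and the lowest wild type was again male 3. Its log2 fold change was -0.67 (SE 0.0415, 95% interval -0.75 to -0.58, edgeR adjusted p = 2.01e-15, 8 of 8), and -0.73 without the 3 libraries. The interval of Adcy5 and those of Gnal and Gng7 did not overlap.

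Of the PKA subunits 1 rose and the other missed the threshold. Prkar2b, the regulatory subunit RII beta, which holds the kinase at its anchors, was at 162.3, 173.3 and 183.3 CPM in Q140 mice and at 162.4, 184.5 and 189.1 CPM in wild types. The ranges overlapped almost wholly, with wild-type male 2 far below the other 7 wild types. The log2 fold change was -0.08 (SE 0.0324, edgeR adjusted p = 0.0569), and leaving out wild-type male 2 gave -0.10 with a call (adjusted p = 0.00741). Leaving out all 3 libraries gave -0.11 (adjusted p = 0.00394). On FPKM the means of Prkar2b were close, 48.2 ± 2.20 in Q140 and 48.8 ± 2.09 in wild-type striatum. Over 12 alternative settings its log2 fold change ran from -0.11 to -0.02. Prkacb, the catalytic subunit beta, was at 663.8, 686.1 and 728.4 CPM in Q140 mice and at 583.1, 627.8 and 654.1 CPM in wild types. All Q140 mice were above all wild types, a rise of 0.15 on the log2 scale (SE 0.0263, 95% interval 0.09 to 0.20, edgeR adjusted p = 2.64e-05, 8 of 8), and of 0.13 without the 3 libraries.

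The 4 phosphoproteins all fell. Ppp1r1b, which encodes DARPP-32, was at 1676, 1814 and 1981 CPM in Q140 mice and at 2508, 2909 and 3160 CPM in wild types. The groups were well apart. The log2 fold change was -0.65 (SE 0.0388, 95% interval -0.73 to -0.57, edgeR adjusted p = 6.52e-16, 8 of 8). Ppp1r1a, protein phosphatase inhibitor 1, a relative of DARPP-32 that PKA also switches on, was at 56.5, 62.5 and 67.1 CPM in Q140 mice and at 86.8, 97.9 and 107.9 CPM in wild types. It fell by the same size, -0.65 (SE 0.0386, 95% interval -0.73 to -0.57, edgeR adjusted p = 5.98e-16, 8 of 8).

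Arpp21, a PKA substrate rich in striatum that binds calmodulin once phosphorylated, was at 998.5, 1152 and 1196 CPM in Q140 mice and at 1722, 1963 and 2314 CPM in wild types. This was the largest change of the 9, -0.82 (SE 0.0444, 95% interval -0.91 to -0.73, edgeR adjusted p = 4.32e-17, 8 of 8), a fall of 43.4%. Arpp19, a small substrate of PKA and of the kinase Mastl that in the Mastl-phosphorylated form inhibits protein phosphatase 2A, was at 428.1, 452.5 and 497.1 CPM in Q140 mice and at 654.5, 764.8 and 842.5 CPM in wild types. Its log2 fold change was -0.74 (SE 0.0398, 95% interval -0.82 to -0.66, edgeR adjusted p = 5.31e-17, 8 of 8). For both genes the groups were apart, and the lowest wild type was male 2 and the highest male 3.

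The mice labelled Polq+/- gave another Q140 comparison that shares no library with the first. Between Q140 Polq+/- and Polq+/- striatum 8 of the 9 members fell and Prkacb rose, against 31.4% of all 18270 genes called, 15.3% lower and 16.1% higher. Of the genes called 51.3% were higher, and on FPKM 75.9% were. The sizes were close to those of the first comparison, with the groups not overlapping for 6 members, against 11.5% of all genes. Ppp1r1b was at 1750, 1881 and 1909 CPM in Q140 Polq+/- mice and at 2603, 2778 and 2964 CPM in Polq+/- mice. Its log2 fold change was -0.59 (SE 0.0391, edgeR adjusted p = 9.15e-15, 8 of 8).

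Arpp21 again fell most, to 1020, 1068 and 1161 CPM in Q140 Polq+/- mice, against 1922, 1964 and 2099 CPM in Polq+/- mice (-0.87, SE 0.0440, edgeR adjusted p = 1.33e-17). Arpp19 (-0.75), Adcy5 (-0.66) and Ppp1r1a (-0.62) followed, each with the groups apart. Gnal was at 929.4, 946.5 and 969.8 CPM in Q140 Polq+/- mice and at 1045, 1089 and 1118 CPM in Polq+/- mice. Here, without the low wild types, the groups for Gnal did not overlap, and the log2 fold change was -0.19 (SE 0.0319, edgeR adjusted p = 1.14e-05, 8 of 8).

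Gng7 fell by 0.19 on the log2 scale (SE 0.0376, edgeR adjusted p = 0.000114), with 1351 to 1507 CPM in Q140 Polq+/- mice and 1494 to 1673 CPM in Polq+/- mice. Prkar2b was called here at -0.10 (SE 0.0324, edgeR adjusted p = 0.0204, 8 of 8), with 159.2 to 175.3 CPM in Q140 Polq+/- mice and 174.6 to 194.4 CPM in Polq+/- mice, so that the ranges barely met. That call was lost on leaving out any of 4 libraries, Polq+/- male 1 (-0.08, adjusted p = 0.0597) and Q140 Polq+/- female 1, male 2 and male 3. On the deposited FPKM the same comparison gave -0.03 for Prkar2b (limma adjusted p = 0.558). With all 16 Q140 carriers set against all 16 non-carriers, where 44.8% of all genes were called (21.2% lower and 23.6% higher; of those called 52.6% higher, and 75.0% on FPKM), Prkar2b fell by 0.09 (edgeR adjusted p = 0.00173), and on FPKM it was at -0.02 (limma adjusted p = 0.424). Prkacb rose by 0.09 (SE 0.0262, edgeR adjusted p = 0.00778, 8 of 8), with 632.9 to 681.9 CPM in Q140 Polq+/- mice and 605.1 to 642.1 CPM in Polq+/- mice. Without the 4 mice of low Polq the rise of Prkacb was 0.08 and was not called (adjusted p = 0.0657), and on FPKM it was 0.16 (limma adjusted p = 7.27e-07).

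**Figure D2:**
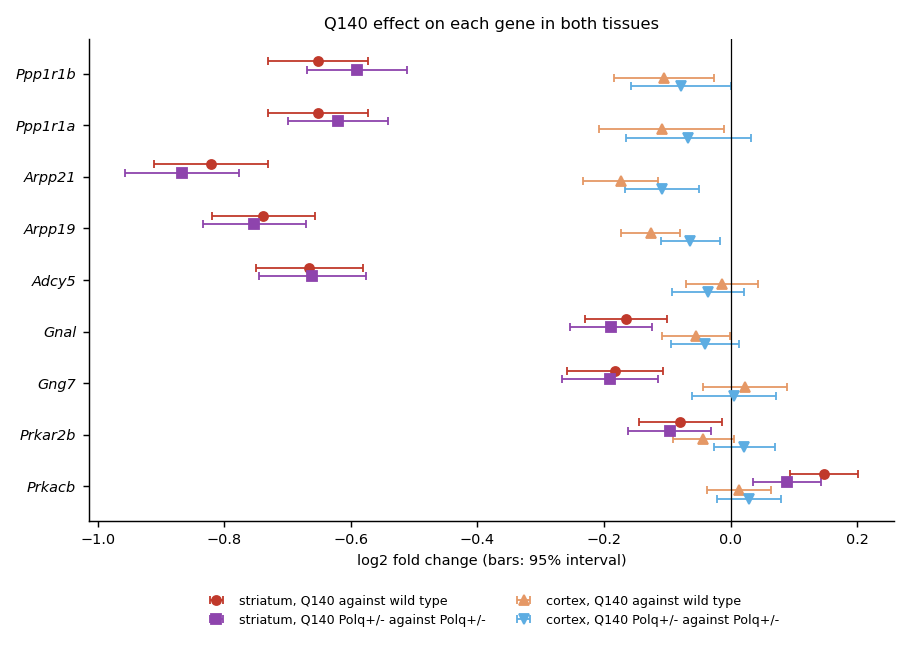
Log2 fold change of each gene with its 95% interval (x axis) for Q140 against wild type and Q140 Polq+/- against Polq+/- in striatum (circles, squares) and cortex (triangles). In striatum Ppp1r1b, Ppp1r1a, Arpp21, Arpp19 and Adcy5 lie between -0.87 and -0.59, Gnal and Gng7 between -0.19 and -0.17, Prkar2b at -0.08 and -0.10 and Prkacb at 0.15 and 0.09, and in cortex the values lie between -0.17 and 0.03.

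In cortex 2 of the 9 members fell between Q140 and wild type, against 0.348% of 18116 genes called (0.204% lower and 0.144% higher). Of the genes called 41.3% were higher, and on FPKM 58.6% were. Both members were ARPP phosphoproteins. Arpp21 was at 354.0, 363.6 and 394.8 CPM in Q140 mice and at 373.6, 417.7 and 454.6 CPM in wild types. The ranges overlapped, with 8 of 8 Q140 mice under the median wild type, and the log2 fold change was -0.17 (SE 0.0294, 95% interval -0.23 to -0.12, edgeR adjusted p = 0.00109). Arpp19 was at 343.1, 351.4 and 368.7 CPM in Q140 mice and at 357.5, 388.6 and 409.7 CPM in wild types (-0.13, SE 0.0229, edgeR adjusted p = 0.00437, 8 of 8). Only 0.121% of all genes had groups that did not overlap, and of the members none did.

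Between Q140 Polq+/- and Polq+/- cortex edgeR called 0 members, against 0.337% of all genes (of those called 36.1% were higher, and on FPKM 61.8%). Arpp21 was at 349.9, 373.5 and 412.1 CPM in Q140 Polq+/- mice and at 374.7, 401.5 and 446.5 CPM in Polq+/- mice (-0.11, SE 0.0292, edgeR adjusted p = 0.093, 7 of 8), and Arpp19 was at -0.06 (adjusted p = 0.279, 8 of 8). Both had an unadjusted edgeR p under 0.05, and DESeq2 called 1 member, Arpp21 (adjusted p = 0.0415). DESeq2 called more genes in all here, 42 higher and 125 lower of 16359, where edgeR called 22 higher and 39 lower of 18116. With all Q140 carriers set against all non-carriers, 16 against 16 mice, Arpp21 (-0.14, edgeR adjusted p = 3.47e-05) and Arpp19 (-0.10, adjusted p = 0.000438) fell, against 2.46% of all genes called (1.61% lower and 0.85% higher). The direction of that background turned with the scaling: of the genes called 34.5% were higher, and on FPKM 62.2% were.

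The other 7 members were not called in cortex in any Q140 comparison by edgeR with all libraries in. Over the carriers Ppp1r1b was at -0.09 (SE 0.0275, edgeR adjusted p = 0.0665, DESeq2 adjusted p = 0.0403) and Ppp1r1a at -0.09 (edgeR adjusted p = 0.198). In that comparison DESeq2 called 221 genes higher and 419 lower of 16359, and edgeR 154 higher and 292 lower of 18116. Leaving out any 1 of 4 libraries brought a call for Ppp1r1b at -0.10 over the carriers: Q140 male 2 (edgeR adjusted p = 0.0416), Q140 male 3 (0.0424), Q140 Polq+/- male 2 (0.0354) or wild-type female 4 (0.0459). Adcy5 was at -0.02 with a 95% interval of -0.06 to 0.02, and Gng7 at 0.01 with an interval of -0.03 to 0.06. Of the 12 spiny neuron markers none was called in cortex between Q140 and wild type.

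**Figure D3:**
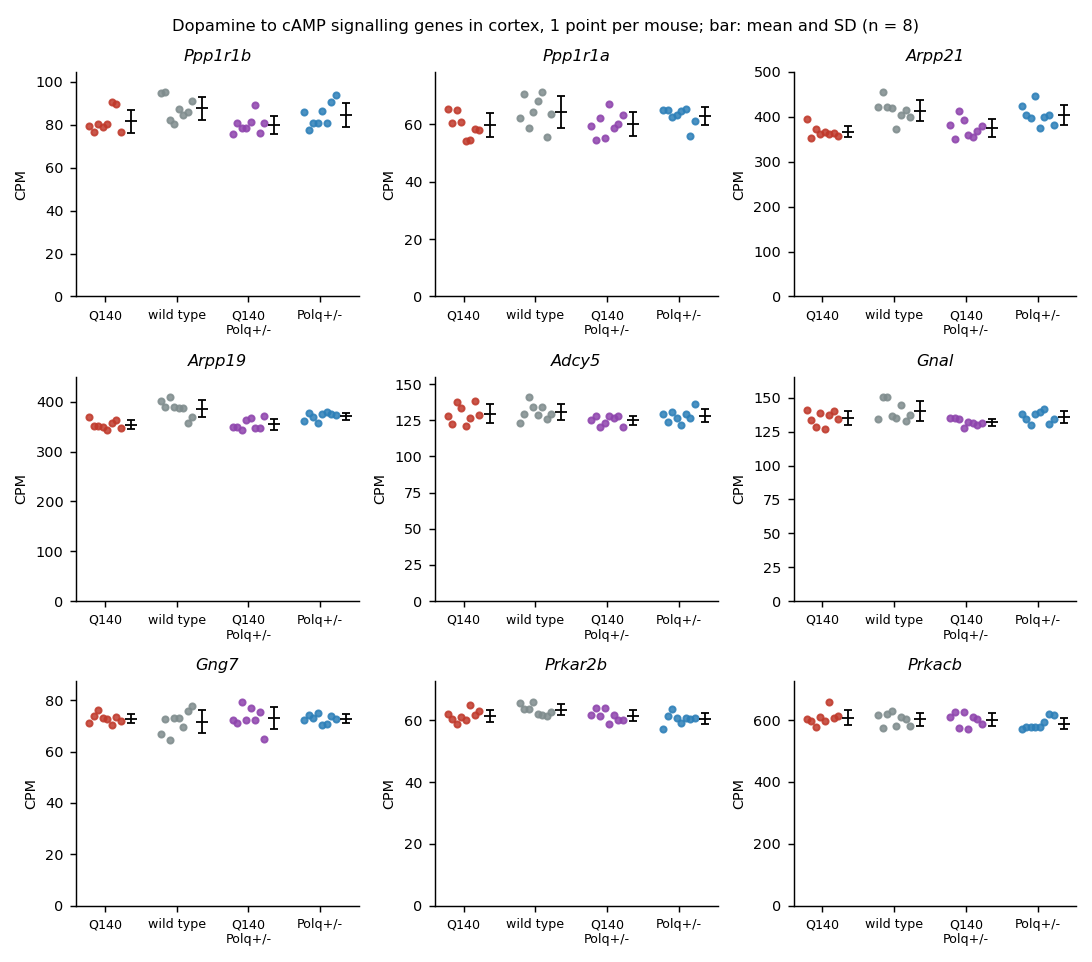
CPM of the 9 genes in cortex, 1 point per mouse, in Q140, wild type, Q140 Polq+/- and Polq+/- mice, with mean and SD of each group of 8. The groups overlap in every panel, and for Arpp21 and Arpp19 all 8 Q140 mice lie below the wild-type median of 417.7 and 388.6 CPM.

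The Q140 effect itself was compared between the tissues in 1 fit of both tissues, 64 libraries, blocked by mouse. All 9 members differed, 8 towards a lower value in striatum and Prkacb towards a higher one, against 32.1% of 19091 genes called (16.3% lower and 15.7% higher). Of the genes called 49.1% were higher, and on FPKM 71.6% were. The difference in log2 fold change, striatum minus cortex, was -0.71 for Arpp21 (SE 0.0348, edgeR adjusted p = 1.65e-19), -0.66 for Arpp19, -0.64 for Adcy5, -0.56 for Ppp1r1a and -0.54 for Ppp1r1b. It was -0.21 for Gng7 (adjusted p = 1.72e-06), -0.14 for Gnal (adjusted p = 5.94e-05), -0.08 for Prkar2b (adjusted p = 0.005) and 0.09 for Prkacb (adjusted p = 0.000924). On FPKM the difference for Prkar2b was -0.03 and not called (limma adjusted p = 0.414), that for Gnal was -0.08 and that for Prkacb 0.15, both called.

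The size of the fall in striatum and the enrichment of a gene in striatum gave different orders. In wild types 8 of 9 members were higher in striatum than in cortex, against 77.2% of genes called in either direction and 39.1% called higher (38.1% lower). The log2 difference between striatum and cortex was 4.99 for Ppp1r1b (SE 0.0371), 4.43 for Gng7 (SE 0.0362) and 3.95 for Adcy5, and it was 2.89 for Gnal and 2.22 for Arpp21. Prkar2b (1.48), Arpp19 (0.93) and Ppp1r1a (0.56) were less enriched, and Prkacb did not pass the test (0.01, SE 0.0218, edgeR adjusted p = 0.664). Gng7, next to Ppp1r1b in this order, fell by 11.9% between Q140 and wild type, while Arpp19 and Ppp1r1a, near its end, fell by 40.1% and 36.4%. Ppp1r1b and Adcy5, also high in this order, were among the large falls, and Prkacb, at its end, rose. This order is a description of 9 chosen genes.

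**Figure D4:**
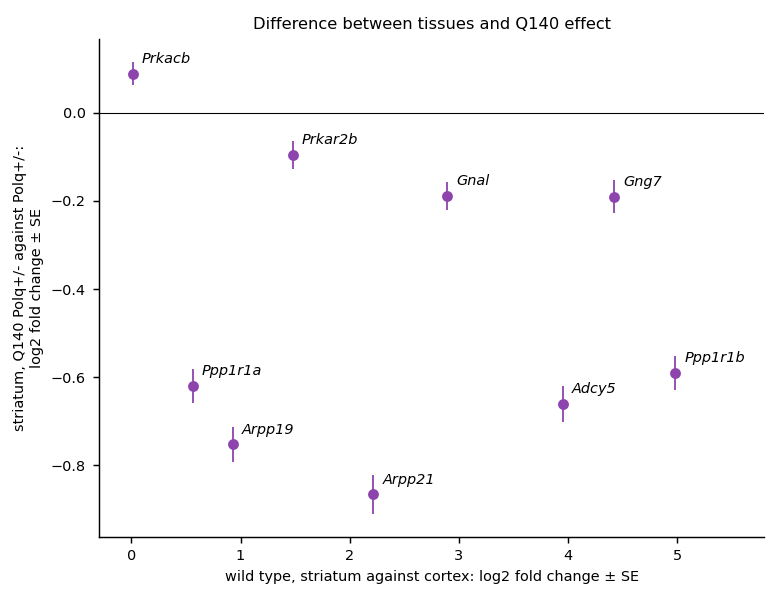
Log2 difference between striatum and cortex in wild types (x axis) against the log2 fold change between Q140 Polq+/- and Polq+/- striatum (y axis), each with its SE, for the 9 genes. The axes share no library, and Gng7 and Gnal lie towards the right at -0.19 while Ppp1r1a (-0.62) and Arpp19 (-0.75) lie at the left. Ppp1r1b and Adcy5 also lie towards the right, with falls near that of Ppp1r1a, and Prkacb lies at the left with a rise.

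Levels between genes were compared per length, in FPKM. In wild-type striatum the order of the medians was Ppp1r1b (973 FPKM), Gng7 (411), Adcy5 (296), Gnal (185), Arpp19 (149), Arpp21 (110), Ppp1r1a (73.6), Prkacb (70.6) and Prkar2b (49.4). The ranges of neighbours overlapped between Gnal and Arpp19, Arpp19 and Arpp21, and Ppp1r1a and Prkacb. In Q140 striatum Prkacb, at 78.4 to 84.5 FPKM, stood above Arpp21, at 59.4 to 69.4 FPKM, and Ppp1r1a, at 45.2 to 53.4 FPKM, overlapped Prkar2b. In wild-type cortex the order was led by Arpp19 (77.9 FPKM) and Prkacb (68.8), and Ppp1r1b, at 29.4 FPKM, came after these and Ppp1r1a.

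Each member was also set against its relatives, as its share in the summed FPKM of its protein family. The test was an exact two-sided permutation of the genotypes within each sex (4900 arrangements, smallest p 0.000408) and adjusted over 28 tests. Adcy5 gave 72.6% ± 0.824 of the mRNA of 9 membrane adenylate cyclases in Q140 striatum and 80.2% ± 1.51 in wild-type striatum (SD, n = 8 each; exact permutation adjusted p = 0.00143). The other cyclases lay low in both groups: Adcy1, the next, averaged 24.3 ± 1.52 FPKM in Q140 and 23.4 ± 5.50 FPKM in wild-type striatum, and of the 8 others only Adcy4 was called, at -0.44 (edgeR adjusted p = 0.00107). Over Q140 Polq+/- and Polq+/- mice the share of Adcy5 was 73.3% and 80.5% (exact permutation adjusted p = 0.00143).

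Arpp19 changed most against its only relative, Ensa (alpha-endosulfine). It gave 69.0% ± 0.998 of the pair in Q140 and 78.6% ± 1.01 in wild-type striatum (exact permutation adjusted p = 0.00143), and 68.7% and 79.0% in Q140 Polq+/- and Polq+/- striatum (the same adjusted p). Cortex showed a smaller shift of the same sign: 57.1% in Q140 and 58.8% in wild-type cortex (exact permutation adjusted p = 0.00416), and 56.9% and 58.3% in Q140 Polq+/- and Polq+/- cortex (0.00343). No other family share passed the test in cortex.

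For Ppp1r1b the share in its family was nearly equal in both genotypes. It gave 92.8% ± 0.243 of the 3 phosphatase inhibitors of its family in Q140 and 92.8% ± 0.325 in wild-type striatum (exact permutation adjusted p = 0.966), a difference of 0.0126 percentage points. The third member, Ppp1r1c, was near 0.

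For Gng7 the share among 12 gamma subunits was 74.9% ± 0.912 in Q140 and 80.8% ± 2.26 in wild-type striatum (exact permutation adjusted p = 0.00254), and 74.9% and 81.6% in Q140 Polq+/- and Polq+/- striatum (0.00143). From raw counts in place of FPKM the differences were smaller and still called, at -3.90 in place of -5.85 percentage points and -4.11 in place of -6.66. Gng3 rose beside it, to 113.6 ± 6.48 CPM in Q140 striatum, against 74.6 ± 6.12 CPM in wild-type striatum (log2 0.61, edgeR adjusted p = 4.26e-14). Gng4 rose as well, to 22.5 ± 1.66 CPM, against 13.1 ± 1.16 CPM (0.78, edgeR adjusted p = 6.18e-13).

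Gnal gave 83.5% ± 0.894 of Gnal plus Gnas, the 2 stimulatory alpha subunits, in Q140 striatum and 85.7% ± 2.15 in wild-type striatum (exact permutation adjusted p = 0.0598). Without wild-type male 2 or male 3 the difference of -2.71 or -2.47 percentage points passed the test (0.00762 and 0.0333). In Q140 Polq+/- and Polq+/- striatum the shares were 83.4% and 86.2% (exact permutation adjusted p = 0.00143).

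Among the PKA regulatory subunits the balance moved away from Prkar2b, with 15.4% ± 0.640 in Q140 and 17.6% ± 0.858 in wild-type striatum (exact permutation adjusted p = 0.00143), and 15.4% and 17.5% in Q140 Polq+/- and Polq+/- striatum (0.00143). The other regulatory subunits were higher: Prkar1b rose to 390.7 ± 9.72 CPM in Q140 striatum, against 326.5 ± 11.9 CPM in wild-type striatum (log2 0.26, edgeR adjusted p = 3.60e-11), and Prkar2a to 47.6 ± 1.74 CPM, against 38.7 ± 3.08 CPM (0.30, edgeR adjusted p = 5.42e-07). Prkacb gave 57.7% ± 0.741 of the catalytic pair with Prkaca in Q140 and 56.2% ± 1.32 in wild-type striatum (exact permutation adjusted p = 0.0467), a difference of 1.55 percentage points that was 0.929 from raw counts. That call was lost on leaving out any of 12 of the 16 libraries, wild-type female 2 among them (1.27 percentage points, 0.0712), and the shares in Q140 Polq+/- and Polq+/- striatum, 56.8% and 56.3%, gave no call (0.315).

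**Figure D5:**
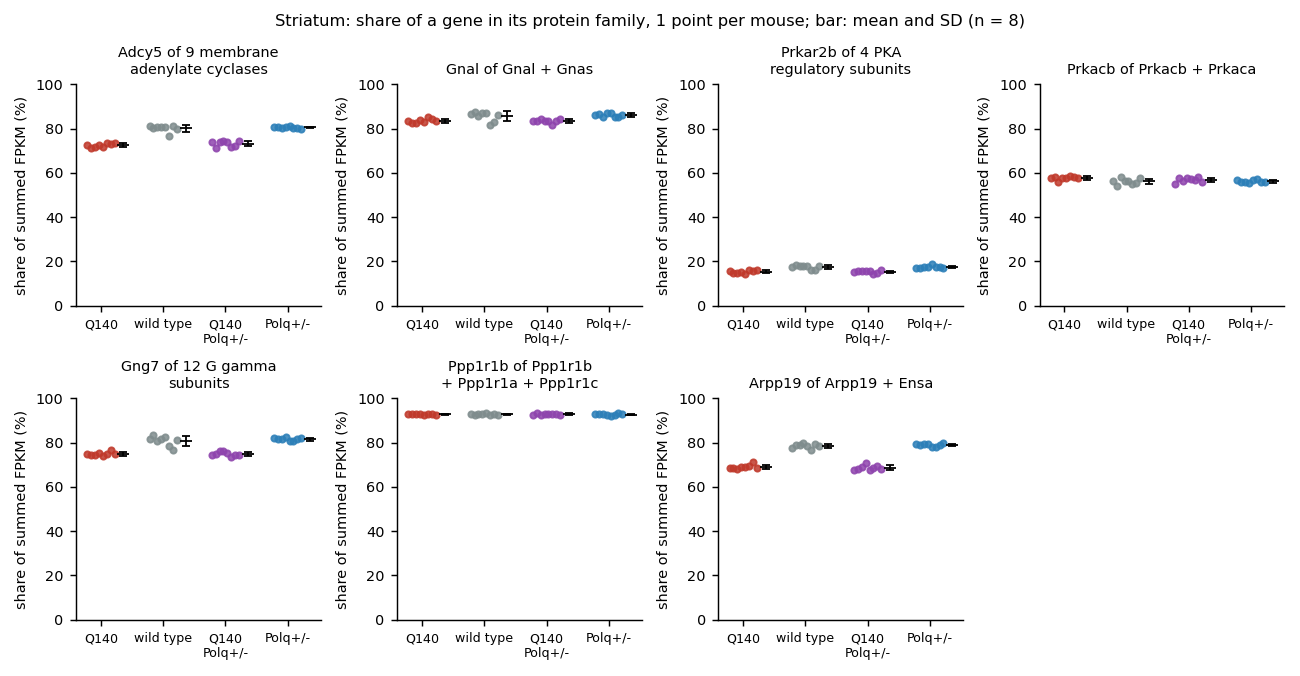
Share of each gene in the summed FPKM of its protein family in striatum (y axis, percent, from 0 to 100), 1 point per mouse, with mean and SD of each group of 8. The means of Q140 and Q140 Polq+/- mice lie below those of wild type and Polq+/- mice for Adcy5, Gnal, Gng7, Prkar2b and Arpp19. Ppp1r1b is at 92.8% in both Q140 and wild type.

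The rest of the pathway was read from 6 lists of 95 genes. Of the 91 tested between Q140 and wild-type striatum 16 rose and 31 fell, a share called that can be set beside 32.1% of all genes, and the median log2 fold change was -0.03. Of 11 tested receptors 7 fell and 2 rose. The adenosine receptor Adora2a fell to 250.5 ± 20.1 CPM in Q140 striatum, against 461.8 ± 44.5 CPM in wild-type striatum (-0.88, edgeR adjusted p = 1.64e-16). The dopamine receptors Drd2 (-0.61, edgeR adjusted p = 4.85e-16) and Drd1 (-0.60, 1.35e-15) fell, as did the orphan receptor Gpr6 (-0.65).

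Of 24 other G protein genes 7 rose and 6 fell, where 16.9% of all genes were called higher and 15.2% lower. Gng3 and Gng4, named above, rose, while the beta subunits Gnb5 (-0.42, edgeR adjusted p = 2.79e-11) and Gnb2 (-0.29) fell. Of 8 other cyclases 1 fell, near the share of all genes called lower. Of 16 PKA subunits, inhibitors and anchors 4 rose and 3 fell, with the PKA inhibitors Pkig at -0.30 (edgeR adjusted p = 7.14e-08) and Pkia at 0.21 (adjusted p = 0.00291).

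Phosphatases and their regulators fell in 12 of 25 and rose in 1, where 15.2% of all genes were called lower and 16.9% higher. Among them were the catalytic subunit Ppp1ca, on which DARPP-32 acts (-0.47, edgeR adjusted p = 2.95e-13), its spine anchor Ppp1r9b, spinophilin (-0.46), calcineurin A alpha Ppp3ca, which dephosphorylates DARPP-32 (-0.44), and the protein phosphatase 2A subunit Ppp2r2a (-0.44). Of 7 cyclic AMP-responsive transcription factors and coactivators Creb1 (0.19) and Crebbp (0.26) rose and Crem (-0.30) and Atf1 (-0.14) fell. Between Q140 Polq+/- and Polq+/- striatum 14 of the 91 rose and 33 fell, beside 31.4% of all genes called.

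In cortex 2 of 90 pathway genes fell between Q140 and wild type and 0 rose, where 0.204% of all genes were called lower and 0.144% higher. They were R3hdm1, a relative of Arpp21 (542 ± 25.5 CPM in Q140 and 614 ± 29.6 CPM in wild-type cortex, -0.18, edgeR adjusted p = 0.000634), and Adcy2 (-0.11, adjusted p = 0.0181), both named after their values were seen. R3hdm1 also fell between Q140 Polq+/- and Polq+/- cortex, to 538 ± 14.2 CPM against 604 ± 33.9 CPM (-0.17, edgeR adjusted p = 0.00243), where Arpp21 missed the threshold. In striatum R3hdm1 fell between Q140 and wild type by 0.19 on the log2 scale (edgeR adjusted p = 0.0075).

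The Polq label was examined next. With edgeR 0 of the 9 members were called between Polq+/- and wild type or between Q140 Polq+/- and Q140 in either tissue, against 0.0493% and 0.0547% of all genes in striatum and 0.0442% and 0.0552% in cortex, and DESeq2 also called 0. At an unadjusted p under 0.05 there were 0 and 1 in striatum (Prkacb between Q140 Polq+/- and Q140, -0.06, adjusted p = 1) and 2 and 0 in cortex (Arpp19 at -0.06 and Prkar2b at -0.07 between Polq+/- and wild type, adjusted p = 0.999 for both). The interaction (Q140 Polq+/- over Polq+/-, minus Q140 over wild type) called 0 members and 0% of genes in both tissues, with 0 members at an unadjusted p under 0.05. Its values in striatum ran from -0.06 for Prkacb (95% interval -0.13 to 0.02) to 0.06 for Ppp1r1b (-0.05 to 0.17). Leaving out the 4 mice of low Polq gave 0 members in these comparisons too.

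Adcy5 lies on chromosome 16, 1.71 Mb from Polq, and was therefore looked at by itself in the comparisons of the Polq label. It was at 2019, 2182 and 2252 CPM in Polq+/- striatum and at 1752, 2115 and 2290 CPM in wild-type striatum (log2 0.05, SE 0.0414, 95% interval -0.03 to 0.14, edgeR adjusted p = 0.947). In cortex it was at -0.03 (95% interval -0.09 to 0.03). In striatum Adcy5 was at 1297, 1367 and 1441 CPM in Q140 Polq+/- mice and at 1222, 1307 and 1456 CPM in Q140 mice. With each library left out in turn, the log2 fold change between these genotypes was 0.04 to 0.08 in striatum and -0.06 to -0.04 in cortex. None of these was called. No member was called for a difference of its Q140 effect between females and males by edgeR, with 0 of 9 in either tissue, 0 at an unadjusted p under 0.05, 0 by DESeq2 and 0% of all genes. The largest difference, females minus males in striatum, was -0.10 for Adcy5 (SE 0.0543, edgeR adjusted p = 0.967).

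The members were also compared with each other over mice within genotypes. After the means of genotype and sex were removed, the log2 CPM of the 36 pairs of members over the 32 striatal libraries had a median Pearson r of 0.43, from -0.16 (Ppp1r1a and Prkacb) to 0.86 (Adcy5 and Gnal). Without the 3 libraries that stood apart the median was 0.41. Adcy5, Gnal and Gng7 formed the tightest trio (0.86, 0.77 and 0.75), and Arpp21 went with Arpp19 (0.75) but hardly with Adcy5 (0.04) or Gnal (0.08). These are descriptions over libraries that share a tissue and a dissection. No median over pairs of other genes was taken to set beside them.

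Among 14588 other named genes the closest to Ppp1r1b in this measure were Pde1b, a calcium-dependent phosphodiesterase that degrades cyclic nucleotides (r = 0.88), Phyhip (0.86) and the calcium sensor Hpca (0.84). The closest to Adcy5 was Actn2 (0.87), to Gnal Cacna2d3 (0.88), and to Gng7 the striatal transcription factor Bcl11b (0.87). Arpp21 went most with Crip2 (0.83), Arpp19 with Chn1 (0.82), Prkar2b with Cdk17 (0.80), Prkacb with Mbnl2 (0.79) and Ppp1r1a with C2cd2l (0.78). Pde1b fell by 0.65 on the log2 scale between Q140 and wild type (edgeR adjusted p = 8.83e-18), and Mbnl2, closest to the rising Prkacb, fell by 0.14 (adjusted p = 0.000386).

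The members lie on separate chromosomes, except for Arpp21 (9:112065091-112235938, minus strand) and Arpp19 (9:75037614-75060313, plus strand). On GRCm38 Ppp1r1b lies at 11:98348404-98357796 and Adcy5 at 16:35154877-35305738, both on the plus strand. The exons of 3 members overlap a gene on the other strand: 1700003D09Rik over 15.7% of the exonic bases of Ppp1r1b, 2900079G21Rik over 3.33% of those of Arpp21 and Mppe1 over 7.63% of those of Gnal. Over all 64 libraries these partners held 1415 counts beside 2730829 for Ppp1r1b, 13341 beside 2182723 for Arpp21 and 39502 beside 1298120 for Gnal. Whether reads were counted by strand is not stated in the sources used here.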

How the data were processed

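RNA was extracted with a Qiagen RNeasy kit and sequenced from Illumina TruSeq stranded libraries, per the labels' protocols. Reads were handled with STAR 2.7.5c, SAMtools 1.10 and HTSeq 0.12.3 on GRCm38 (mm10), per the submitters' processing notes. The authors deposited, per library, raw counts and FPKM of each gene. Recomputation showed the FPKM to be counts divided by gene length and by the library total only, with no further scaling between libraries (relative spread 3.25e-08 over 15456 genes).

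The test on counts was edgeR's quasi-likelihood test (edgeR 4.0.16, R 4.3.3, robust, TMM scaling, genes filtered by filterByExpr on genotype, sex in the model). A joint model per tissue used its 32 libraries, with Benjamini-Hochberg adjustment over the genes of each comparison. The tissue difference was fitted over 64 libraries with the mouse as a block. The methods were tested on simulated data. DESeq2 1.42.0 and limma 3.58.1 (on log2 of FPKM plus 1 or 0.1) served as alternatives, and log2 fold changes are edgeR's unless said otherwise. Intervals (95%) and p-values measure the spread between mice.

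Same-numbered mice correlated at -0.26 to 0.31 in striatum and -0.16 to 0.27 in cortex after group means were removed, so the numbers were taken not to pair mice. The genes, the lists and the tests were chosen with earlier results of these data known. The rule for named genes took the 9 members, up to 4 called genes of each pathway list with the smallest p, and the genes most like each member, leaving out predicted genes.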

Additional observations from a re-analysis of the deposited data

Results flagged for a closer look

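Within a group of 8 mice a lone library stood far from the other 7 by Dixon's criterion in 6 of 72 combinations of gene and group, where chance alone flags about 1 in 20. In striatum these were Ppp1r1a in Q140 Polq+/- female 2, low at 55.6 CPM, and Prkar2b in wild-type male 2, low at 162.4 CPM. In cortex they were Ppp1r1b in Q140 Polq+/- male 2, high at 89.3 CPM, Ppp1r1a in Polq+/- male 3, low at 56.1 CPM, Arpp21 in Q140 female 1, high at 394.8 CPM, and Prkacb in Q140 male 2, high at 659.4 CPM.

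The Q140 effect differed between the tissues for each of the 9 genes by the test of the difference itself (edgeR, mouse as a block, adjusted over 19091 genes). Of all genes 32.1% were called in this test, and on FPKM Prkar2b was not (-0.03, limma adjusted p = 0.414). Striatum minus cortex, the difference in log2 fold change was -0.54 for Ppp1r1b, -0.56 for Ppp1r1a, -0.71 for Arpp21, -0.66 for Arpp19, -0.64 for Adcy5, -0.14 for Gnal, -0.21 for Gng7, -0.084 for Prkar2b and 0.091 for Prkacb.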

How the results depend on the processing

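Under the alternatives, which were other scalings (DESeq2 size factors, deposited FPKM), another tool (DESeq2), all genes kept, fits of the compared groups alone, sex left out, the plate column, a stricter threshold and libraries left out, no called result changed its sign. With the replicate number as a block 8 members were called between Q140 and wild-type striatum and 9 between Q140 Polq+/- and Polq+/- striatum. Over all 18270 genes the block gave 3126 higher and 2752 lower in the first comparison and 2936 higher and 2802 lower in the second. The block changed no other call of a member. The plate columns of striatum and cortex were separate, so tissue and plate column cannot be told apart. Genotypes were spread unevenly over the columns within a tissue. DESeq2 called 1 member in place of 0 between Q140 Polq+/- and Polq+/- cortex, where it called 42 genes higher and 125 lower of 16359. Without the 3 striatal libraries that stood apart the share of Gnal was called between Q140 and wild type (-3.21 percentage points) and that of Prkacb was not (1.27). Prkar2b moved across the threshold most often. It was called between Q140 and wild-type striatum with DESeq2 (adjusted p = 0.0335) and with DESeq2's size factors in edgeR (adjusted p = 0.0416). In that comparison its log2 fold change ran from -0.11 to -0.02 over 12 alternatives. It was not called on FPKM for the difference between tissues (-0.03, limma adjusted p = 0.414).

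With each library left out in turn, the number of members called stayed at 8 or 9 in both striatal Q140 comparisons and at 2 and 0 in the cortical ones. With all libraries in, 32.1% and 31.4% of all genes were called in those striatal comparisons and 0.348% and 0.337% in the cortical ones. Over all carriers in cortex the number was 2 or 3, against 2.46% of all genes with all libraries in. Ppp1r1b was called there without Q140 male 2, Q140 male 3, Q140 Polq+/- male 2 or wild-type female 4. Prkar2b ranged from -0.10 to -0.07 between Q140 and wild type and was called without Polq+/- male 1, Q140 male 2, Q140 male 3 or wild-type male 2, and from -0.10 to -0.08 between Q140 Polq+/- and Polq+/-, where the call was lost without Polq+/- male 1 or Q140 Polq+/- female 1, male 2 or male 3. Differences in share ranged from -2.71 to -1.83 points for Gnal and 1.27 to 1.81 points for Prkacb in striatum of Q140 against wild type, and in cortex of Q140 Polq+/- against Polq+/- from -0.605 to -0.307 for Gnal, -0.472 to -0.225 for Gng7 and 0.104 to 0.160 for Prkar2b, each called in some of these runs. The cause of these changes was not tested. Depth was not varied, and the counts behind each member are given with the library totals.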
